A study of Mus musculus with 6 samples.

Results

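The genes described here are 10 genes of mast cells, basophils and eosinophils. They were chosen by name, as every probe set annotated to Mcpt8, Fcer1a, Ms4a2, Cpa3, Hdc, Gzmb, Prg2, Prg3, Epx or Il5ra, and were represented by 12 of 45037 non-control probe sets, or 10 of 18193 named genes. The first 6 genes are treated as basophil and mast cell genes and the last 4 as eosinophil genes. They were measured in B.D(Chr5) mice, a strain whose label names chromosome 5, and in C57B/L6 mice. The RNA came from lineage negative bone marrow, that is, marrow depleted of cells with mature lineage markers, which leaves mainly stem cells and progenitors. All mice were adult females of 6 to 16 weeks, and the labels name no treatment or further allele. Each strain had 3 biological replicates with 1 Affymetrix mouse expression array each. Whether a replicate was 1 mouse or a pool is not given in the labels, so the p-values cover only the spread among the samples at hand. The 10 genes lie on chromosomes 1, 2, 3, 6, 11, 14 and 19, so none is on chromosome 5.

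Mast cells, basophils and eosinophils are the granulocytes of allergic and anti-parasite responses. They arise from bone marrow progenitors that use GATA transcription factors and respond to interleukin-3, interleukin-5 or the Kit ligand. Basophils and mast cells carry the high-affinity IgE receptor, whose crosslinking releases histamine and proteases, while eosinophil granules store cationic proteins and a peroxidase. In bulk RNA, fewer cells of a type and less RNA per cell cannot be told apart.

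Values are MAS5 signals, the summary of the probes of a probe set on a linear scale, and were compared only within a probe set. A control level was set on each array as the 95th percentile of its probe sets for bacterial transcripts, which match no mouse transcript, and ran between 21.8 and 38.0. Array medians ran between 65.0 and 79.5. All 8 measured genes of a list of stem and progenitor cells, among them Kit, Cd34 and Flt3, were above the control level on at least 1 array. T and NK cell transcripts were also present, with 1 of 14 measured list genes (Gzmc) at or below the control level on every array. The 5′ probe set of 18S ribosomal RNA, which reads residual ribosomal RNA, had signals of 1726, 20010.3 and 12554 in B.D(Chr5) replicates 1, 2 and 3, against 13058, 2454 and 6306 in C57B/L6.

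The upstream sequences of 4 members are shown because GATA factors are well-known regulators of these lineages, and all 4 hold a match to the GATA word given below. Mcpt8 and Epx, which hold no match, were also high on B.D(Chr5) replicates 1 and 3. Whether such matches bear on the signals was not tested. RefSeq (GRCm38.p6) gave the 250 bases before the annotated start for 9 of the 10 genes, all but Prg2. Capitals mark matches on either strand to the GATA word, which is AGATAA or a form of it with T as the first letter, G as the last letter or both. No match overlaps another in the sequences shown. The sequences read 5′ to 3′ towards the start: Fcer1a (chr1:173227230-173227479, minus strand), Ms4a2 (chr19:11623720-11623969, minus strand), Cpa3 (chr3:20242182-20242431, minus strand) and Prg3 (chr2:84987965-84988214, plus strand).
Fcer1a: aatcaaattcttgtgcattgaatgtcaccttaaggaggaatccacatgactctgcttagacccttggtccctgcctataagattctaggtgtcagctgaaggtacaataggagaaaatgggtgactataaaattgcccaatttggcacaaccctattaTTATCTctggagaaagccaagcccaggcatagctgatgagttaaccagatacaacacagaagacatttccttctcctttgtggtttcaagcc
Ms4a2: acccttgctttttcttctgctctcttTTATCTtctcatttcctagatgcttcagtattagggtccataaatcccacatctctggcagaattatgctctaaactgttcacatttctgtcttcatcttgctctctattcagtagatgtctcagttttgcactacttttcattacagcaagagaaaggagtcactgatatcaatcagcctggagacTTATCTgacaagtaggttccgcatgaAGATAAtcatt
Cpa3: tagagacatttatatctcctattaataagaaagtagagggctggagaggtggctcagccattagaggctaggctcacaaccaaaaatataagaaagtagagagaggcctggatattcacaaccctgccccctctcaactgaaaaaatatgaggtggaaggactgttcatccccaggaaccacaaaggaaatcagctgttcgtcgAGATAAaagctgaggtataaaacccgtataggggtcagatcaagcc
Prg3: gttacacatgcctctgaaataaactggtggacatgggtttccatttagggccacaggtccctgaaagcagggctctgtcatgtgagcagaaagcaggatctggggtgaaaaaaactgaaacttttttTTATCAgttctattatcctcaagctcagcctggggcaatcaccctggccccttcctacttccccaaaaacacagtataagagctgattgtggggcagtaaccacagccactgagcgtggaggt

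Such a word was found before 6 of the 9 starts, those of Fcer1a, Ms4a2, Cpa3, Hdc, Prg3 and Il5ra, against 26.5% of 32851 promoters of the same length. Ms4a2 held 3 matches, the nearest beginning 11 bases before the start. The match in Cpa3 began 46 bases before the start and that in Fcer1a 92 bases before it. The core GAGGAA, bound by the myeloid factor PU.1, was found on either strand before Fcer1a and Mcpt8, 2 of 9, against 23.3% of all promoters. A match describes the letters of the reference window and is not a measured binding site.

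None of the 9 member genes that could be tested passed the threshold for a strain difference. The test was limma on log2(signal + 16), run over the 22518 brighter probe sets with Benjamini-Hochberg adjustment at 0.05, and called 41 probe sets (0.182%, of which 0.0977% higher and 0.0844% lower in B.D(Chr5)). Of the 10 genes, 8 had a higher mean log2 signal in B.D(Chr5), beside 8768 of all 18193 named genes. At an unadjusted limma p under 0.05 the count was 6 genes, Mcpt8, Fcer1a, Ms4a2, Hdc, Prg2 and Epx, all higher in B.D(Chr5), beside 4.75% of all tested probe sets. The arrays of the strains overlapped for every gene but Fcer1a, beside 9.4% of tested probe sets without overlap. Fcer1a had all B.D(Chr5) arrays above (4.16% of tested probe sets), and 0 members had them all below (5.24%). At least 2 B.D(Chr5) arrays were above all C57B/L6 arrays for 8 genes, beside 18.5% of tested probe sets. For every member the range of signals over the 3 B.D(Chr5) arrays was wider than the difference between the strain means, as the plot of signals shows.

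**Figure D1:**
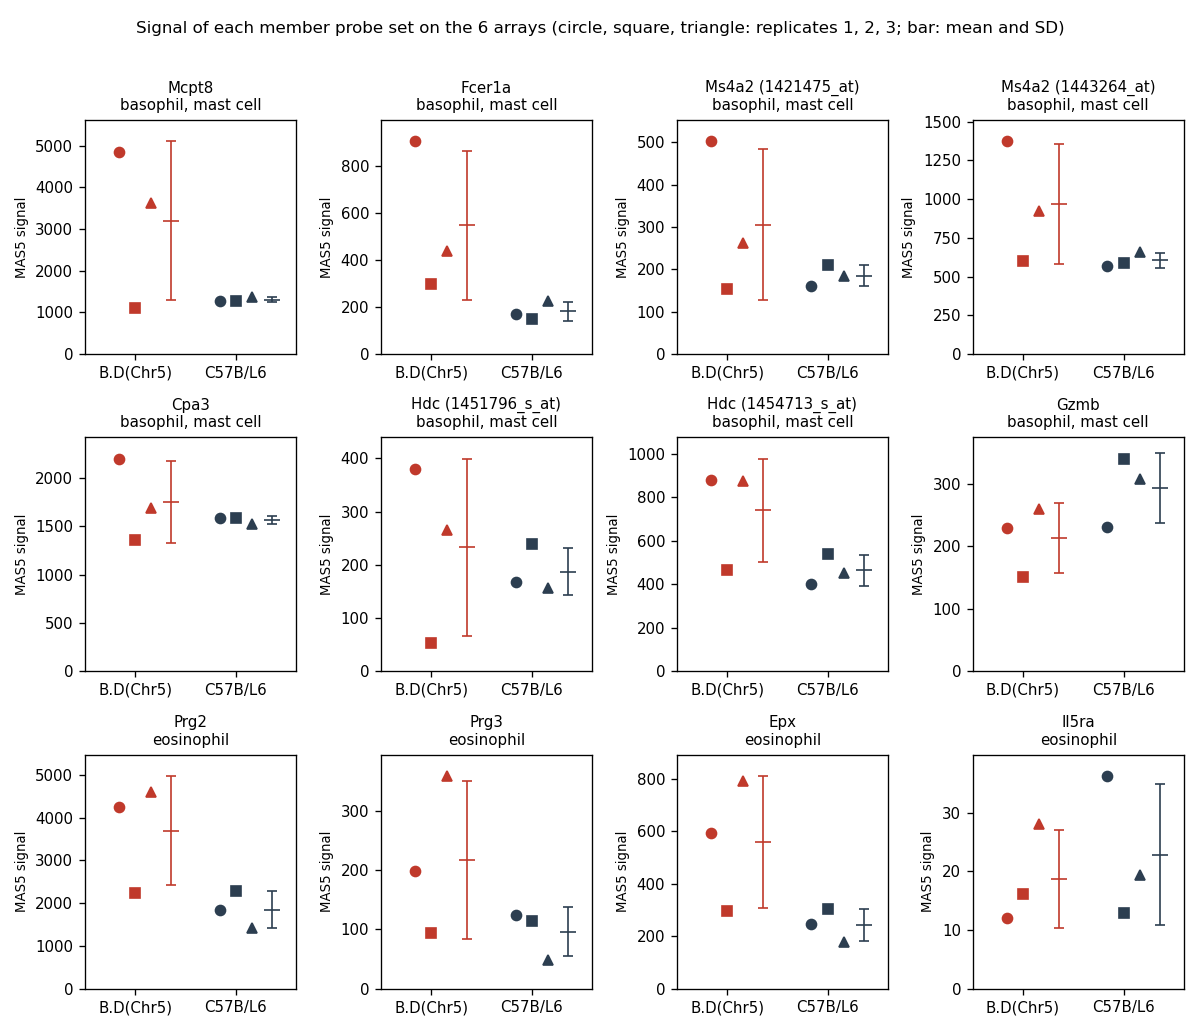
Signal of each of the 12 member probe sets (vertical axis, MAS5 signal, linear from 0) in B.D(Chr5) and C57B/L6. Circles, squares and triangles are replicates 1, 2 and 3, and the horizontal mark with its bar is the mean ± SD of 3 arrays. B.D(Chr5) replicates 1 and 3 lie above all C57B/L6 arrays for 8 of the 10 genes, and B.D(Chr5) replicate 2 does so for Fcer1a only.

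The IgE receptor was represented by its α and β chains. Fcer1a encodes the α chain, which binds IgE and gives the receptor its specificity. Its signals were 904, 299.6 and 439 in B.D(Chr5) replicates 1, 2 and 3, against 171, 149 and 227 in C57B/L6. Every B.D(Chr5) array lay above every C57B/L6 array, and the mean signal was 547 ± 316 in B.D(Chr5) and 182 ± 40.3 in C57B/L6 (SD, n = 3 each), a ratio of 3.00. On the log2 scale it was higher by 1.38 ± 0.34 (SE), with a 95% interval of 0.62 to 2.14 (limma adjusted p = 0.412). Centring each array on its median brought it past the threshold at 1.37 (limma adjusted p = 0.0380), in a fit that called 0.298% of probe sets, 0.147% as higher in B.D(Chr5). An exact two-sided permutation test gave p = 0.1, below which a design of this size cannot go.

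Ms4a2 encodes the β chain, which amplifies the receptor's signal. On its brighter probe set the signals were 1372, 602 and 926 in B.D(Chr5), against 566, 585 and 659 in C57B/L6. Replicates 1 and 3 of B.D(Chr5) stood above C57B/L6 and replicate 2 lay within its range. The log2 change was 0.59 ± 0.24 (SE; limma adjusted p = 1.00), and it was 0.30 with B.D(Chr5) replicate 1 left out and 0.89 with replicate 2 left out. The dimmer probe set had 502, 153 and 262 in B.D(Chr5) and 160.4, 211 and 184 in C57B/L6, a log2 change of 0.53 ± 0.34 (SE). Its B.D(Chr5) replicate 2 was the lowest of the 6 arrays, and the order within B.D(Chr5) was the same on both probe sets.

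Of the 3 basophil and mast cell genes Mcpt8, Hdc and Cpa3, the protease gene Mcpt8, a marker of mouse basophils, had the largest log2 change. It had signals of 4849.5, 1113 and 3619.6 in B.D(Chr5), against 1266, 1268 and 1378 in C57B/L6. Replicates 1 and 3 of B.D(Chr5) reached 3.72 and 2.78 times the C57B/L6 mean and replicate 2 reached 0.853 times. The mean was 3194 with a coefficient of variation of 59.6% in B.D(Chr5), and 1304 with one of 4.91% in C57B/L6 (n = 3 each), and the log2 change was 1.04 ± 0.43 (SE), with a 95% interval of 0.09 to 2.00 (limma adjusted p = 1.00).

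Hdc encodes histidine decarboxylase, the enzyme that makes histamine. Its brighter probe set read 880.5, 465 and 873 in B.D(Chr5) and 401, 541 and 453 in C57B/L6, a log2 change of 0.60 ± 0.23 (SE; limma adjusted p = 0.954). B.D(Chr5) replicates 1 and 3 were nearly equal and above C57B/L6, and replicate 2 was within its range. The other probe set disagreed, with a log2 change of -0.02 ± 0.53 (SE). It had 380.4, 53.1 and 266 in B.D(Chr5) and 168, 238 and 156 in C57B/L6, so replicates 1 and 3 were again high and replicate 2 was the lowest of all arrays. The mean over both probe sets had a log2 change of 0.29.

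Cpa3 encodes mast cell carboxypeptidase, stored in mast cell and basophil granules and also transcribed in early progenitors. Its signals were 2198, 1357 and 1687 in B.D(Chr5) and 1586, 1585 and 1519.5 in C57B/L6. The order within B.D(Chr5) was that of Mcpt8, Fcer1a and Ms4a2, over a narrower range. The log2 change was 0.13 ± 0.15 (SE), with a 95% interval of -0.21 to 0.47 (limma adjusted p = 1.00), and it turned to -0.047 once B.D(Chr5) replicate 1 was left out and was 0.30 with replicate 2 left out.

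Gzmb encodes granzyme B, a protease of cytotoxic lymphocytes that mouse mast cells can also make. It was the 1 tested member with a lower mean on its brightest probe set. The signals were 229, 151 and 261 in B.D(Chr5) and 231, 341 and 309 in C57B/L6, with a log2 change of -0.45 ± 0.22 (SE) and a 95% interval of -0.95 to 0.05 (limma adjusted p = 1.00). It was -0.23 with B.D(Chr5) replicate 2 left out. B.D(Chr5) replicates 1 and 2 lay below all C57B/L6 arrays, and replicate 3 lay within their range. The 14 measured genes of T and NK cell cytotoxicity had summed signals of 5731 to 8014 in B.D(Chr5) and 6994 to 11082 in C57B/L6, and a median log2 change of -0.26. The log2 change was positive for 5 of these genes and negative for 9. Of the 12 tested, 5 had an unadjusted limma p under 0.05, beside 4.75% of all tested probe sets. In the list, 4 genes had all B.D(Chr5) arrays below all C57B/L6 arrays, beside 5.24% of tested probe sets. The 2 of smallest p were Ccl5, a chemokine of activated T and NK cells, at -0.86 (limma adjusted p = 0.274), and Cd3d, a T cell receptor chain, at -0.80 (limma adjusted p = 0.349). Gzmc was at or below the control level on every array. The part of these cells in the value of Gzmb was not tested.

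Among the eosinophil genes, Prg2 encodes major basic protein, the crystalline core of the eosinophil granule. Its signals were 4254, 2239 and 4609.9 in B.D(Chr5), against 1836, 2279 and 1419 in C57B/L6. Replicates 1 and 3 of B.D(Chr5) were above all C57B/L6 arrays, and replicate 2 was just below the highest of them. The mean was 3701 ± 1279 in B.D(Chr5) and 1845 ± 429.9 in C57B/L6 (SD, n = 3 each), and the log2 change was 0.96 ± 0.26 (SE), with a 95% interval of 0.38 to 1.53 (limma adjusted p = 0.568).

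Epx encodes eosinophil peroxidase, which makes oxidants from hydrogen peroxide. It read 593, 295 and 794 in B.D(Chr5) and 245, 304 and 179 in C57B/L6. Replicate 3 was the highest B.D(Chr5) array and replicate 2 again lay within the range of C57B/L6. The log2 change was 1.08 ± 0.32 (SE), with a 95% interval of 0.36 to 1.80 (limma adjusted p = 0.702).

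Prg3 encodes the homologue of major basic protein. Its signals were 199.6, 93.9 and 359.8 in B.D(Chr5), against 125, 114 and 48.5 in C57B/L6. The log2 change was 0.97 ± 0.44 (SE), with a 95% interval of -0.01 to 1.96 (limma adjusted p = 1.00). It was 0.54 with B.D(Chr5) replicate 3 left out and 0.61 with C57B/L6 replicate 3 left out. The C57B/L6 arrays kept the same order for Prg3, Epx and Prg2 at the low end, replicate 3 being the lowest for each.

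Il5ra encodes the α chain of the interleukin-5 receptor, the cytokine that drives eosinophil production. Its signals were 12.0, 16.2 and 28.1 in B.D(Chr5) and 36.3, 12.9 and 19.3 in C57B/L6. All B.D(Chr5) arrays and 2 of the 3 C57B/L6 arrays lay at or below the control level, and the gene was not among the brighter 50% that were tested. The other 11 probe sets were above the control level on all 6 arrays.

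**Figure D2:**
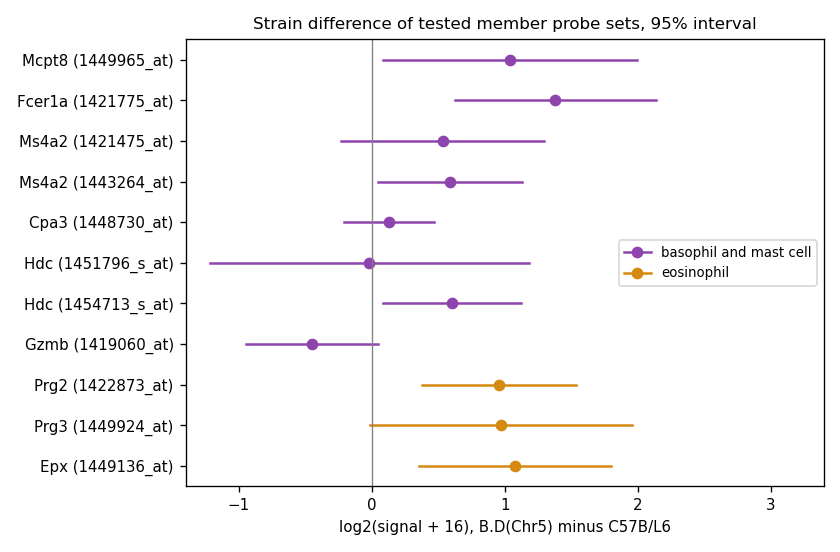
Difference in log2(signal + 16), B.D(Chr5) minus C57B/L6, for the 11 tested member probe sets (points), with the 95% interval from limma (lines), 3 arrays per strain. The intervals of Fcer1a, Mcpt8, Prg2, Epx and the brighter probe sets of Ms4a2 and Hdc lie above 0 without adjustment for the number of probe sets tested, and none passes after it.

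Over all members the median log2 change, with each gene read from its brightest probe set, was 0.60 for the 6 basophil and mast cell genes and 0.96 for the 4 eosinophil genes, against -0.0066 over all 18193 named genes. The members and their grouping were chosen with earlier results of these arrays known, so these medians carry no test. Leaving out single arrays, the basophil and mast cell median ran between 0.38 (B.D(Chr5) replicate 1 left out) and 0.89 (replicate 2), and the eosinophil one between 0.65 (replicate 3) and 1.36 (replicate 2).

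The members varied together across the B.D(Chr5) arrays. Replicates 1 and 3 were both above all C57B/L6 arrays for 8 of the 10 genes, and for 7 of the 9 tested genes replicate 2 was not. This combination held for 6.14% of all tested probe sets, and the arrays it names were picked after the values were seen. It also held for the transcription factor genes Cebpa, Cebpb and Spi1, so it was not particular to the members. Replicate 2 was the lowest B.D(Chr5) array for 9 of the 10 genes, the exception being the dim Il5ra. For the basophil and mast cell genes, the median log2 signal relative to the C57B/L6 mean was 1.04, -0.10 and 0.75 in B.D(Chr5) replicates 1, 2 and 3, and between -0.08 and 0.08 in the C57B/L6 arrays. For the eosinophil genes it was 1.13, 0.18 and 1.51, against -0.36 to 0.31. Replicate 1 was the highest of the 6 arrays for 5 of the 6 basophil and mast cell genes, and replicate 3 was the highest for Prg2, Prg3 and Epx. How often each array was lowest or highest over all tested probe sets is not given here.

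**Figure D3:**
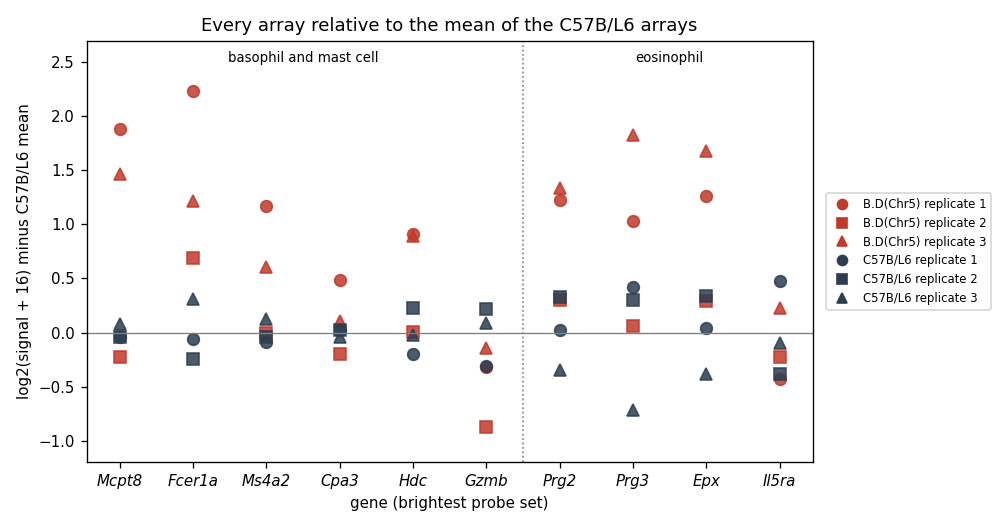
Each array's log2(signal + 16) minus the mean of the 3 C57B/L6 arrays (vertical axis), for the brightest probe set of each member (horizontal axis). Red symbols are B.D(Chr5) and dark symbols C57B/L6, with circles, squares and triangles for replicates 1, 2 and 3. Circles lead for most basophil and mast cell genes (2.23 for Fcer1a) and triangles for Prg2, Prg3 and Epx (1.83 for Prg3), while the red squares stay near the C57B/L6 arrays except for Fcer1a and Gzmb.

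Without B.D(Chr5) replicate 2, limma called 3 member genes, beside 0.324% of all probe sets in that fit, 0.235% as higher in B.D(Chr5). They were Mcpt8 with a log2 change of 1.67 (adjusted p = 0.00108), Prg2 with 1.28 (adjusted p = 0.0222) and Epx with 1.47 (adjusted p = 0.0445). Fcer1a then had 1.72 (adjusted p = 0.0674). That array is the lowest of its strain for these genes, so leaving it out raises their mean by construction. Leaving out replicate 1 in its place brought Mcpt8 to 0.62, and 0 members were called. On the same array the 5 measured genes of neutrophil primary granules also had a lower summed signal than on the other B.D(Chr5) arrays, 57471 against 81965 and 78077, and 46262 to 54424.5 in C57B/L6. The median of the 8 measured stem and progenitor genes relative to the C57B/L6 mean was -0.06 there, -0.33 and -0.28 on B.D(Chr5) replicates 1 and 3, and -0.21 to 0.17 in C57B/L6. The 18S signal was highest on B.D(Chr5) replicate 2 (20010.3), where the members were low, and lowest on replicate 1 (1726), where they were high. It was 12554 on B.D(Chr5) replicate 3, where the members were high. C57B/L6 replicate 2 had 2454, with the basophil and mast cell median at -0.01. The part of these differences in the members' values was not tested.

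Further genes of these lineages were mostly dim. Of 19 measured genes in the list of other mast cell and basophil genes, 4 were bright enough to be tested and 0 passed limma, with 0 at an unadjusted p under 0.05. In the same list 6 genes were at or below the control level on every array: the chymase genes Mcpt1, Mcpt2 and Mcpt4, the tryptase gene Tpsg1, the receptor gene Mrgprb1 and the cytokine gene Il13. Other mast cell proteases were dim but not all at that level. The chymase gene Cma1 had 66.4, 34.1 and 36.9 in B.D(Chr5) and 63.4, 60.2 and 45.7 in C57B/L6, above the control level on all arrays but B.D(Chr5) replicate 3. The tryptase gene Tpsab1 had 24.1, 12.4 and 26.8 in B.D(Chr5) and 37.9, 24.1 and 40.7 in C57B/L6, above that level on B.D(Chr5) replicate 1 and all C57B/L6 arrays. Slc18a2, the transporter that loads histamine and other monoamines into vesicles, had 642, 695 and 670.1 in B.D(Chr5) and 722, 756 and 827 in C57B/L6. Its sign was opposite to that of Hdc, with a log2 change of -0.19 (limma adjusted p = 1.00). Ltc4s, the synthase of leukotriene C4, had 99.9, 187 and 56.3 in B.D(Chr5) and 27.5, 67.0 and 68.3 in C57B/L6, and was highest on B.D(Chr5) replicate 2, where the members were low. Cd200r3, an activating receptor gene of basophils and mast cells that was named after its values were seen, was high on the same arrays as the members. It was too dim to be tested and had 114, 12.5 and 101 in B.D(Chr5), against 30.3, 16.4 and 31.0 in C57B/L6.

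Only 3 further eosinophil genes were measured. Alox15, a lipoxygenase gene of eosinophils and macrophages, had 194, 74.4 and 333 in B.D(Chr5) and 91.0, 67.0 and 20.7 in C57B/L6. Its order within both strains was that of Prg3, with replicate 3 highest in B.D(Chr5) and lowest in C57B/L6, and its log2 change was 1.45 ± 0.51 (SE; limma adjusted p = 0.905). The eotaxin receptor gene Ccr3 was dim, with 24.3, 4.94 and 45.1 in B.D(Chr5) and 11.1, 14.8 and 3.86 in C57B/L6. Siglecf, a sialic acid receptor gene of mature eosinophils, read 381, 406 and 406 in B.D(Chr5) and 447, 425 and 441 in C57B/L6, a log2 change of -0.13 (limma adjusted p = 1.00), and so stood below C57B/L6 on all 3 arrays.

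Surrounding machinery gave no call. In each of the lists of IgE receptor signalling, cytokine receptors, transcription factors and granule storage, 0 genes passed limma. Of their 12, 9, 16 and 13 tested genes, 1, 1, 3 and 0 had an unadjusted limma p under 0.05, beside 4.75% of all tested probe sets. The 12 measured genes of IgE receptor signalling had a median log2 change of -0.11, with 10 negative. Fcer1g, the γ chain that the IgE receptor shares with other Fc receptors, had 4592, 3612 and 4814 in B.D(Chr5) and 4008, 5471 and 5191 in C57B/L6, with a log2 change of -0.17 (limma adjusted p = 1.00). Plcg1, a phospholipase downstream of the receptor, had a log2 change of -0.37 (limma adjusted p = 0.953), and Lat, an adaptor of the same pathway, had -0.31 (limma adjusted p = 1.00). The other probe sets of Plcg1 had 0.43 and -0.15. The median was 0.021 for the 10 cytokine receptor genes. Of these, Il18r1, a receptor chain for interleukin-18, had a log2 change of -0.51 (limma adjusted p = 1.00), and Csf2rb, the β chain shared by the receptors for interleukin-3, interleukin-5 and GM-CSF, had 0.29 (limma adjusted p = 1.00).

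The 17 measured transcription factors had a median log2 change of -0.042. The GATA factor genes overlapped between the strains: Gata1 had 2345, 3195 and 2043 in B.D(Chr5) and 2967, 2248 and 2684 in C57B/L6, and Gata2 had 1510.2, 1396 and 1177 in B.D(Chr5) and 1453, 1245 and 1680.1 in C57B/L6. Of the 6 arrays, Gata1 was highest on B.D(Chr5) replicate 2. Xbp1, a regulator of secretory cells that eosinophils need, had 9723, 7912 and 9022 in B.D(Chr5) and 7034, 7069 and 6728 in C57B/L6, a log2 change of 0.35 ± 0.08 (SE; limma adjusted p = 0.388). Cebpb, a myeloid factor gene, had 0.54 (limma adjusted p = 0.871). The 13 genes of granule storage and release had a median of -0.0094. Ctsc, the protease that activates granule proteases, had a log2 change of 0.29 and Ctsd, a lysosomal protease, had -0.10 (limma adjusted p = 1.00 for both).

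**Figure D4:**
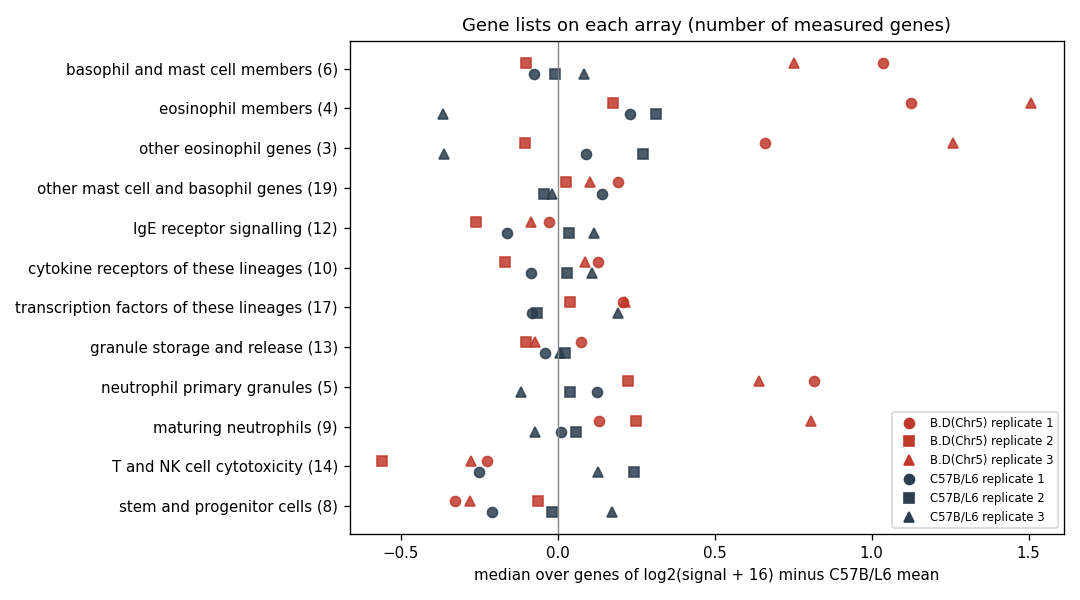
Median over the measured genes of the lists on the vertical axis of log2(signal + 16) relative to the C57B/L6 mean (horizontal axis), for each array. Red symbols are B.D(Chr5) and dark symbols C57B/L6, with circles, squares and triangles for replicates 1, 2 and 3, and the number of measured genes follows each list's name. B.D(Chr5) replicates 1 and 3 stand apart for the basophil and mast cell members (1.04 and 0.75), the eosinophil members (1.13 and 1.51), the other eosinophil genes (0.66 and 1.26) and the neutrophil primary granule genes (0.82 and 0.64). Replicate 2 is at -0.10, 0.18, -0.10 and 0.22 for the same lists in that order, above all C57B/L6 arrays only for the primary granule genes.

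Log2 changes were positive for 5 of 5 measured neutrophil primary granule genes, 8 of 9 genes of maturing neutrophils and 6 of 6 B lymphoid genes. Of these genes, 0 passed limma. The count was 4 of 5 for monocytes, 4 of 7 for plasmacytoid dendritic cells and 1 of 8 for stem and progenitor cells. It was 0 of 5 for both erythroid cells and megakaryocytes, and 8768 of 18193 over all named genes. All 5 measured genes of neutrophil primary granules had the 3 B.D(Chr5) arrays above the 3 C57B/L6 arrays, beside 4.16% of tested probe sets, and 5 had an unadjusted limma p under 0.05. The count at that level was 5 of 9 tested genes for maturing neutrophils and 3 of 5 for B lymphoid genes, beside 4.75% of all tested probe sets. Among the primary granule genes, the protease genes Ctsg and Prtn3 had log2 changes of 0.56 (limma adjusted p = 0.379) and 0.45 (limma adjusted p = 0.412). Maturing neutrophil genes had summed signals of 53187 to 74133 in B.D(Chr5) and 44365 to 49533 in C57B/L6, with Camp at 0.65 (limma adjusted p = 0.594) and Ngp at 0.45 (limma adjusted p = 0.839). For B lymphoid genes the sums were 2437 to 6002 in B.D(Chr5) and 1970.3 to 2372 in C57B/L6, with Igll1 at 0.83 (limma adjusted p = 0.695) and Vpreb1 at 0.82 (limma adjusted p = 0.839). Relative to the C57B/L6 mean, the B lymphoid median was 0.45, 0.30 and 1.34 on B.D(Chr5) replicates 1, 2 and 3, against -0.15 to 0.08 in C57B/L6. Replicate 2 was thus also above the C57B/L6 arrays. The monocyte median was 0.36, -0.21 and 0.32, against -0.15 to 0.12. In stem and progenitor genes, Meis1 had -0.41 (limma adjusted p = 0.746) and Flt3 -0.29 (limma adjusted p = 1.00). The other probe sets of Meis1 had -0.15 and 0.67. The lists of monocytes, plasmacytoid dendritic cells, erythroid cells and megakaryocytes had medians between -0.19 and 0.18 and 0 genes past limma, with 1 at an unadjusted p under 0.05. Their named genes were Adgre1 (0.46) and Cx3cr1 (0.18), Spib (0.63) and Ccr9 (-0.54), Epor (-0.16) and Alas2 (-0.22), and Gp9 (-0.39) and Pf4 (-0.14). The other probe sets of Ccr9 ran from -0.34 to 0.25.

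Several members lie beside each other or beside related genes in the RefSeq order of the tested genes. Untested genes were left out of that order and may lie between them. On chromosome 2, Prg2 and Prg3 are neighbours among the tested genes, and both had B.D(Chr5) replicates 1 and 3 high. The genes on their outer sides, Slc43a3 and Ptprj, had log2 changes of 0.03 and 0.04. Among the tested genes of chromosome 14, Ctsg lies next to Mcpt8 on one side and to Gzmb on the other. They belong to the same cluster of granule proteases. Ctsg had 16976, 11244 and 15026 in B.D(Chr5) and 9994, 10034 and 8902 in C57B/L6, higher on all B.D(Chr5) arrays, while Gzmb had a mean difference of the opposite sign. On chromosome 19, the nearest tested gene on one side of Ms4a2 is Ms4a3. It is a gene of the same membrane protein family expressed in granulocyte-monocyte progenitors. Ms4a3 had 5614, 2396 and 5288 in B.D(Chr5) and 2276, 1946 and 1532 in C57B/L6, a log2 change of 1.12 ± 0.29 (SE; limma adjusted p = 0.499), and shared the order of Ms4a2 within B.D(Chr5). Atp8b4, the nearest tested gene on one side of Hdc on chromosome 2, had 0.34 (limma adjusted p = 0.930).

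Fcer1a had a different setting. Of the 10 nearest tested genes on each side of it on chromosome 1, limma called 4: Pex19 on one side and the interferon-inducible family members Ifi209, Mndal and Ifi202b on the other, the last 8 tested genes away. Pex19, which serves peroxisome assembly, fell by 1.47 on the log2 scale (limma adjusted p = 0.0257), and Ifi209 fell by 3.70 (limma adjusted p = 1.6e-06). Mndal lay at or below the control level in all B.D(Chr5) arrays and between 3759 and 5265 in C57B/L6, while Ifi202b read 3500 to 4877 in B.D(Chr5) and lay at or below the control level in C57B/L6 (limma adjusted p = 2.1e-08 for both). Among 10704 tested genes matched to RefSeq, of which 1 called gene has no chromosome there, 24 were called, and for the other 9 members 0 of the 10 nearest on each side were. Neither tested gene directly beside Fcer1a was called. Ackr1, an atypical chemokine receptor gene, had a log2 change of 0.016 (limma adjusted p = 1.00), with 142, 176 and 253 in B.D(Chr5) and 177, 200.4 and 174 in C57B/L6. Dusp23, a phosphatase gene, had a log2 change of -0.27 (limma adjusted p = 1.00), with 124, 163 and 155 in B.D(Chr5) and 196, 171 and 174 in C57B/L6.

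The genes whose pattern over the 6 arrays was nearest to the members were found by the root mean square difference of log2 profiles, each centred on its own mean, among 10730 tested genes. For the mean profile of the basophil and mast cell genes they were Lmo1, Kcnk6, Bmx, Trim45 and Sgip1, with differences of 0.095 to 0.13, against a median of 0.47 over all genes. Lmo1, a LIM-only transcriptional cofactor gene, had 461, 205 and 361 in B.D(Chr5) and 199, 239 and 199 in C57B/L6. Among the members, Ms4a2 was nearest to their mean at 0.073 and Gzmb farthest at 0.55. For the mean profile of the eosinophil genes, which includes the dim Il5ra, the nearest were Morrbid, Trem3, Clec5a, Gda and Mgst2. They lay at 0.12 to 0.18, against a median of 0.55. The members themselves lay farther from it, Prg2 at 0.20, Epx at 0.23, Prg3 at 0.27 and Il5ra at 0.57. Trem3, a myeloid receptor gene, had 872, 517 and 1024 in B.D(Chr5) and 461, 456 and 368 in C57B/L6, so that all B.D(Chr5) arrays were higher and replicate 2 was nearest to C57B/L6. Of the 10 nearest genes, 0 passed limma, with adjusted p from 0.35 for Mgst2 to 1.00.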

How the data were processed

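The authors deposited 1 table of linear intensity values per probe set. MAS5 is named in the submitters' processing notes. Its version and settings were not given in the sources used here. In the deposited values every array had the same trimmed mean, 500 once the outer 2% on either side were removed. Of 45101 probe sets, 64 controls were left out, and 34945 had 1 gene symbol, 932 several and 9160 none. Symbols were updated through Entrez identifiers to RefSeq (GRCm38.p6), which held 34741 of them and gave gene order.

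Intensities were turned into log2(signal + 16), so fold changes of dim probe sets are understated. The upper 50% of probe sets by mean log2 value (22518) were tested two-sided with lmFit and a trended eBayes (limma 3.58.1 under R 4.3.3), strain being the only term. A gene was called if any tested probe set had an adjusted p under 0.05. For values per gene the brightest probe set was used. No detection calls were used, and 27 bacterial controls gave each array's control level. On simulated data the fit recovered 12 of 67 log2 changes of 0.5, 41 of 67 of 1.0 and 60 of 66 of 2.0, with 3 false calls. The simulated probe sets varied independently of each other, whereas the members varied together. Precision is limited by having 3 arrays a strain.

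The members and lists were chosen with earlier results of these data known. All members were named, and from each other list the called genes or else the 2 of smallest p. The 5 nearest profiles and the called genes among the 10 nearest tested genes on each side of a member were also named. Fcer1g, Gata1, Gata2, Cebpa, Spi1, Ccr3, Cd200r3, Cma1, Tpsab1, Kit and Cd34 were named outside this rule. So were the tested genes directly beside a member. The same holds for Gzmc, Mcpt1, Mcpt2, Mcpt4, Tpsg1, Mrgprb1 and Il13, named as genes at or below the control level on every array. The values of all these genes had been seen. Alternatives are given in the closing section.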

Additional observations from a re-analysis of the deposited data

How the results depend on the processing

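With all arrays limma called 0 member genes and 41 probe sets. The count of member genes was 1 (Fcer1a, adjusted p = 0.0380) after centring each array on its median, 0 to 3 when single arrays were left out, and 0 in the other settings run. The 3 were Mcpt8, Prg2 and Epx without B.D(Chr5) replicate 2. Over all probe sets the count was 67 with median centring, 25 with eBayes without trend and 21 to 73 with single arrays left out, the last without B.D(Chr5) replicate 2. With the replicate number as a block it was 27. The labels do not say that a number marks a shared litter or day, and the correlations of deviations between same-numbered arrays were -0.11, -0.20 and 0.20, so the numbers were not taken as pairs. The log2 changes of Mcpt8, Fcer1a, Ms4a2, Hdc, Gzmb, Prg2, Prg3 and Epx kept their signs in the alternatives that can alter them. These were pseudocounts of 1 and 64, quantile normalization, median centring and single arrays left out, and for Ms4a2 and Hdc the mean over probe sets. The filter, the removal of probe sets ending in _x_at, eBayes without trend and the replicate block leave these log2 changes as they are by construction. Cpa3 ran from -0.047 without B.D(Chr5) replicate 1 to 0.30 without B.D(Chr5) replicate 2 when single arrays were left out. The medians ran from 0.38 to 0.89 (basophil and mast cell) and from 0.65 to 1.36 (eosinophil). The cause of these ranges was not tested. Il5ra, above the control level on 1 array, changed sign between settings and is given no direction.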
